A study of Arabidopsis thaliana with 6 samples.

Results

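ABCI20 (AT5G02270) and ABCI21 (AT5G44110) are 2 nuclear genes of Arabidopsis thaliana, represented by 2 of the 22746 probe sets on the array that are not controls. Their rows, 251020_at for ABCI20 and 249063_at for ABCI21, were chosen by their higher MAS5 signal on the red light arrays than on the dark arrays, with results of that comparison known, so these signals are described without a test. The platform annotation used here does not list either row, and the gene names were assigned through the row identifiers. RefSeq's gene table for TAIR10.1, consulted only for symbols, pairs both locus tags with these names. Both are plain "_at" identifiers, the form without a mark for probes shared between genes.

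Both genes encode ATP-binding cassette (ABC) proteins of subfamily I. A full ABC transporter joins domains that bind and split ATP to domains that span the membrane. The proteins of the group to which ABCI20 and ABCI21 belong carry the ATP-binding domain without a membrane-spanning one and are therefore called non-intrinsic, or soluble, ABC proteins. In Arabidopsis ABCI20 and ABCI21 are known, together with their close relative ABCI19, as light-induced genes downstream of the bZIP transcription factor HY5, and their proteins associate with one another at the endoplasmic reticulum and affect how seedlings respond to cytokinin.

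The study measured transcripts in the terminal 1 cm of roots from seedlings grown for 7 days at 23°C in darkness. One group received red light for 1 h at a fluence rate of 12 to 14 µmol m-2 s-1 with its maximum at 630 nm (3 arrays), and the other stayed in darkness for 1 h (3 arrays). The labels give no genotype, mutant or transgene. Each sample pooled root tips from several Petri plates and went onto 1 single-colour Affymetrix array. The labels call the samples biological replicates without saying more about their origin, so the spread between arrays may be partly technical. In such whole tissue, a change in the number of cells of a type and a change in RNA per cell cannot be told apart.

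The arrays were not alike, and the difference crossed the treatments. The ratio of 3' to 5' signal of the GAPDH control transcript was 20.2 to 26.2 on red light 1, dark 1 and dark 3 (high-ratio class) and 0.981 to 1.45 on red light 2, red light 3 and dark 2 (low-ratio class). With treatment in the fit, limma called 36.8% of the 13647 tested probe sets different between these classes at an adjusted p under 0.05. Array medians lay between 150.0 and 176.4. The changes of both ABC genes are therefore also given with array class. Of the 24 root markers examined, 4 were found on a named probe set, and all 4 passed the signal filter. None of the 4, which are EXPA7, EXPA18, XTH26 and PYK10, was listed at 0, as held for every probe set on these arrays. Their values follow at the end.

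ABCI21 had signals of 6227.2, 2251.8 and 1748.9 in red light replicates 1, 2 and 3, against 162.1, 132.3 and 177.5 in dark replicates 1, 2 and 3. Each red light array lay far above each dark array, with the lowest red light signal 9.85 times the highest dark signal and the highest red light signal 47.1 times the lowest dark signal. The mean was 3409 ± 2453 in red light and 157.3 ± 23.0 in the dark (SD, n = 3 arrays each). On the log2 scale, the change in red light minus dark was 4.22 (SE 0.48, 18.6-fold) with treatment alone in limma and 4.55 (SE 0.29, 23.5-fold) with array class as a further term. The mean of the dark signals is close to the array medians, and detection calls were not used here.

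ABCI20 had signals of 2004.1, 1310.1 and 1195.6 in red light replicates 1, 2 and 3, against 277.6, 334.7 and 312.0 in dark replicates 1, 2 and 3. The groups were again apart on every array, although by less than for ABCI21, since the lowest red light signal was 3.57 times the highest dark signal. The mean was 1503 ± 437 in red light and 308.1 ± 28.7 in the dark (SD, n = 3 arrays each). The log2 change in red light minus dark was 2.25 (SE 0.29, 4.77-fold) with treatment alone and 2.34 (SE 0.24, 5.05-fold) with array class.

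**Figure D1:**
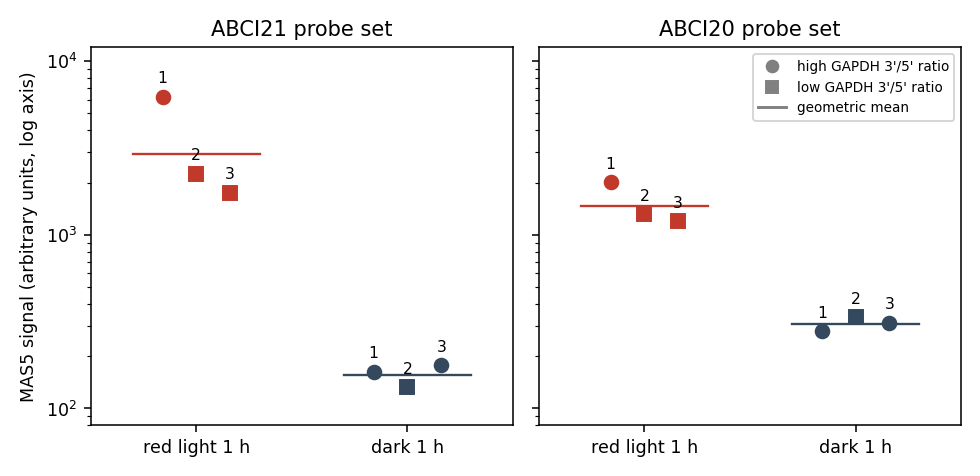
MAS5 signal (log axis) of the ABCI21 and ABCI20 probe sets on each of 6 arrays, red light left and dark right. Numbers are replicates, circles and squares are arrays of the high and low GAPDH 3'/5' ratio class, and lines are geometric means. All red light points lie above all dark points, and red light 1 (6227.2 for ABCI21 and 2004.1 for ABCI20) is the highest for both genes. Levels of different probe sets are not comparable.

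The change of ABCI21 was larger than that of ABCI20 by 1.96 on the log2 scale with treatment alone. That gap was 2.43 on the high-ratio arrays and 2.00 on the low-ratio arrays. ABCI21 had the highest change of the 13647 tested probe sets in both fits. ABCI20 was 22nd with treatment alone and 14th with array class. For comparison, the 99th percentile of the change over all tested probe sets was 1.20 with treatment alone and 0.95 with array class, and the median was -0.02 and -0.03 in the same fits.

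Probe sets in which every red light array exceeded every dark array made up 2.23% of those tested, and both genes were among them. With treatment alone, limma called 0 of 13647 probe sets at an adjusted p under 0.05 (0%). An unadjusted limma p under 0.05 was found for 258 (1.89%), fewer than that threshold would pass with no change at all. With array class, 11 probe sets (0.0806%) were called higher in red light. These counts come from the contrast that chose the genes and are given as background for the array.

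Within the array classes, 1 red light array stood against 2 dark arrays in the high-ratio class and 2 red light arrays against 1 dark array in the low-ratio class. Since every red light array lay above every dark array, each gene had to be higher in red light in both classes. Only the sizes of the changes are described. ABCI21 had a change of 5.20 (36.7-fold) on the high-ratio arrays and of 3.91 (15.0-fold) on the low-ratio arrays. In signals, this was 6227.2 in red light against a mean of 169.8 in the dark for the high-ratio arrays, and a mean of 2000 in red light against 132.3 in the dark for the low-ratio arrays. ABCI20 had a change of 2.77 (6.81-fold) on the high-ratio arrays and of 1.90 (3.74-fold) on the low-ratio arrays. Both changes of both genes lay above the 99th percentile over all tested probe sets, which stood at 1.65 for the high-ratio arrays and 1.04 for the low-ratio arrays. These values come from the contrast that chose the genes and add no test.

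**Figure D2:**
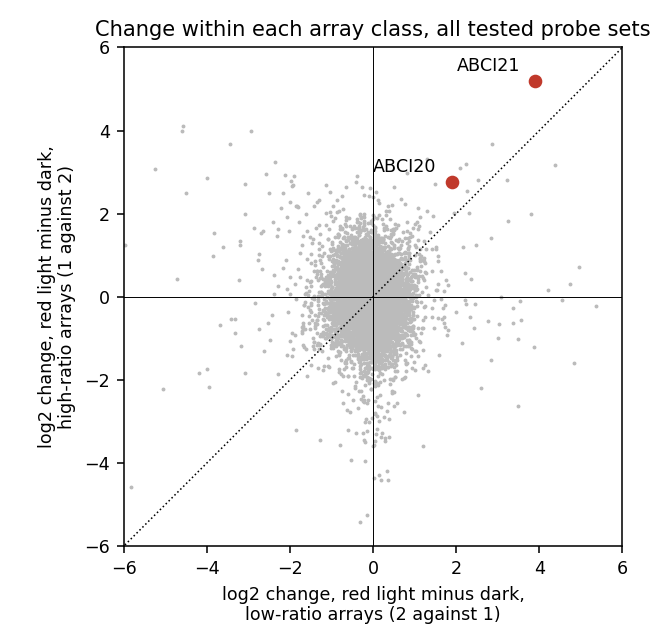
Log2 change in red light minus dark within the high-ratio arrays (vertical, 1 red light against 2 dark) and within the low-ratio arrays (horizontal, 2 red light against 1 dark). Grey points are the 13647 tested probe sets and the dotted line marks equal change. ABCI21 (5.20 and 3.91) and ABCI20 (2.77 and 1.90) lie above 0 on both axes and above the dotted line.

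Both points lie above the line of equal change, so the measured change was larger on the high-ratio arrays for both genes. A limma fit with an interaction between treatment and array class, added after the data were seen, estimated that difference with 2 residual degrees of freedom. For ABCI21 it was 1.29 (SE 0.43), and for ABCI20 it was 0.86 (SE 0.41). No p is given, since the estimate rests on 1 high-ratio red light array and 1 low-ratio dark array. It also uses the change that chose the genes. Whether the response differed between the array classes cannot be told from these values.

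The level of ABCI21, averaged over treatments, did differ between the array classes. The high-ratio arrays were above the low-ratio arrays by 1.00 on the log2 scale (SE 0.29, limma adjusted p = 0.0188). This call was lost without red light 1 (0.36, limma adjusted p = 0.487), without red light 2 (0.99, limma adjusted p = 0.0578), without red light 3 (0.83, limma adjusted p = 0.0608) and with a replicate block (1.38, limma adjusted p = 0.26). Among red light arrays alone, high-ratio minus low-ratio was 1.65, and among dark arrays alone it was 0.36. For ABCI20 the class difference was 0.25 (SE 0.24, limma adjusted p = 0.447), and without red light 1 it was -0.19 (limma adjusted p = 0.719).

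The spread between replicates was unequal. The coefficient of variation of ABCI21 was 72.0% in red light and 14.6% in the dark. That of ABCI20 was 29.1% in red light and 9.33% in the dark. The red light spread came mainly from red light 1, the only red light array of the high-ratio class, whose ABCI21 signal was 2.77 times that of the next red light array and whose ABCI20 signal was 1.53 times that of the next. Over all tested probe sets, red light 1 was the brightest red light array for 42.1% and more than 1.5 times as bright as the other red light arrays for 20.9%. Of the 305 probe sets with every red light array above every dark array, 7.21% exceeded that factor.

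By replicate number, the dark arrays did not repeat the order seen in red light. ABCI21 was lowest on dark 2 and highest on dark 3, whereas ABCI20 was lowest on dark 1 and highest on dark 2. By array class, ABCI21 was higher on the high-ratio dark arrays (162.1 and 177.5) than on the low-ratio one (132.3), as in red light. ABCI20 was lower on the high-ratio dark arrays (277.6 and 312) than on the low-ratio one (334.7), unlike in red light. Both genes were steady in the dark compared with the rest of the array. The SD of the 3 log2 dark signals was 0.14 for ABCI20 and 0.22 for ABCI21, while the median over all tested probe sets was 0.40. A larger dark SD was found for 91.1% of the tested probe sets than for ABCI20 and for 79.6% than for ABCI21. In red light the SD was 0.40 for ABCI20 and 0.97 for ABCI21, against a median of 0.46, and 13.3% of the tested probe sets had a larger one than ABCI21.

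The size of the changes depended only moderately on the processing that was tried. Over 14 alternatives to the fit with treatment alone, the change of ABCI21 ranged from 3.59 to 4.58 and that of ABCI20 from 2.03 to 2.40. The lowest value of ABCI21 came with array weights, and the lowest of ABCI20 without red light 1, which also gave 3.67 for ABCI21. The rank moved more than the value. Without red light 1, ABCI21 was 9th and ABCI20 140th by change, and with array weights they were 21st and 208th. Without the signal filter the changes were the same, but ABCI20 was 138th of 22746 probe sets with treatment alone. With array class and no filter it was 199th. ABCI21 was 2nd in both fits without the filter.

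**Figure D3:**
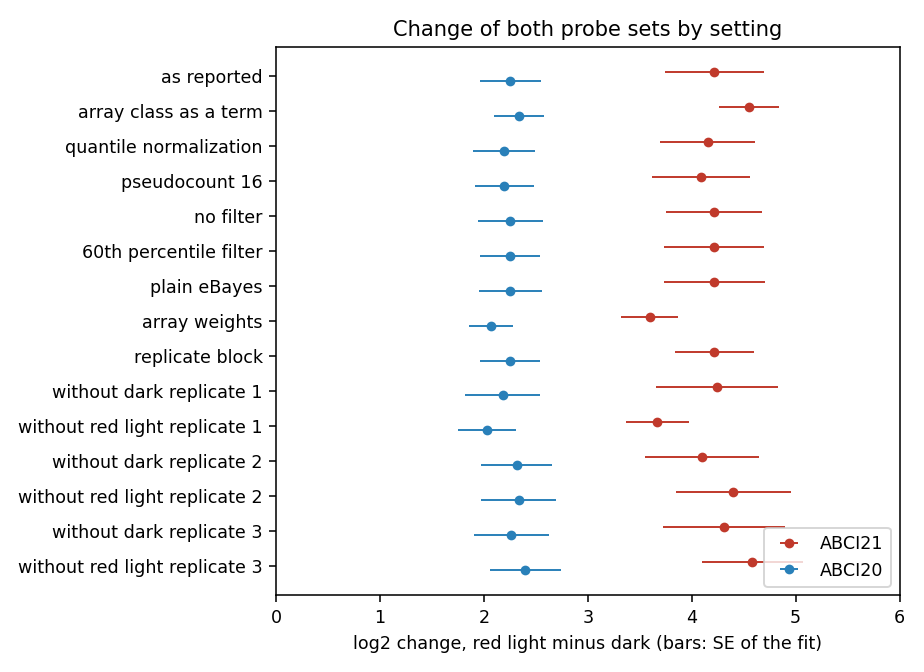
Log2 change in red light minus dark of ABCI21 (red) and ABCI20 (blue) for each setting, with bars for the standard error of the limma fit. The values run from 3.59 to 4.58 for ABCI21 and from 2.03 to 2.40 for ABCI20, and the genes keep their order in every setting shown.

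The probe sets whose signals followed the pair most closely were ranked by Pearson correlation over the 6 arrays with the mean log2 signal of ABCI20 and ABCI21. The red light and dark arrays of the pair lie far apart, so this measure mostly records the gap between treatments and is given as a description. Probe sets picked in this way share the contrast that chose the pair, so their changes are given without a p. The 6 closest had r of 0.973 to 0.999, and 1 of them, BUB3.1, is named in the annotation. The closest was 260956_at (r = 0.999), with signals of 7022.5, 3600.9 and 3370.2 in red light, against 760.5, 739 and 775.8 in the dark. Like both ABC genes it was brightest on red light 1. Its change was 2.54 (SE 0.33) with treatment alone and 2.71 (SE 0.23) with array class.

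The next was 256266_at (r = 0.988), with signals of 1396.6, 1188.2 and 738.7 in red light, against 177.6, 162.2 and 220.9 in the dark. Its change was 2.53 (SE 0.33) with treatment alone and 2.67 (SE 0.26) with array class. No gene is named for either probe set in the annotation used. BUB3.1, which encodes a protein of the spindle checkpoint in mitosis, had r = 0.977 but signals of only 370.3 to 418.8 in red light, against 307 to 324.4 in the dark. Its change of 0.29 (SE 0.25) was small, since the correlation measures shape and not size. The remaining 3, all unnamed, had changes of 0.26 to 1.24 with treatment alone.

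**Figure D4:**
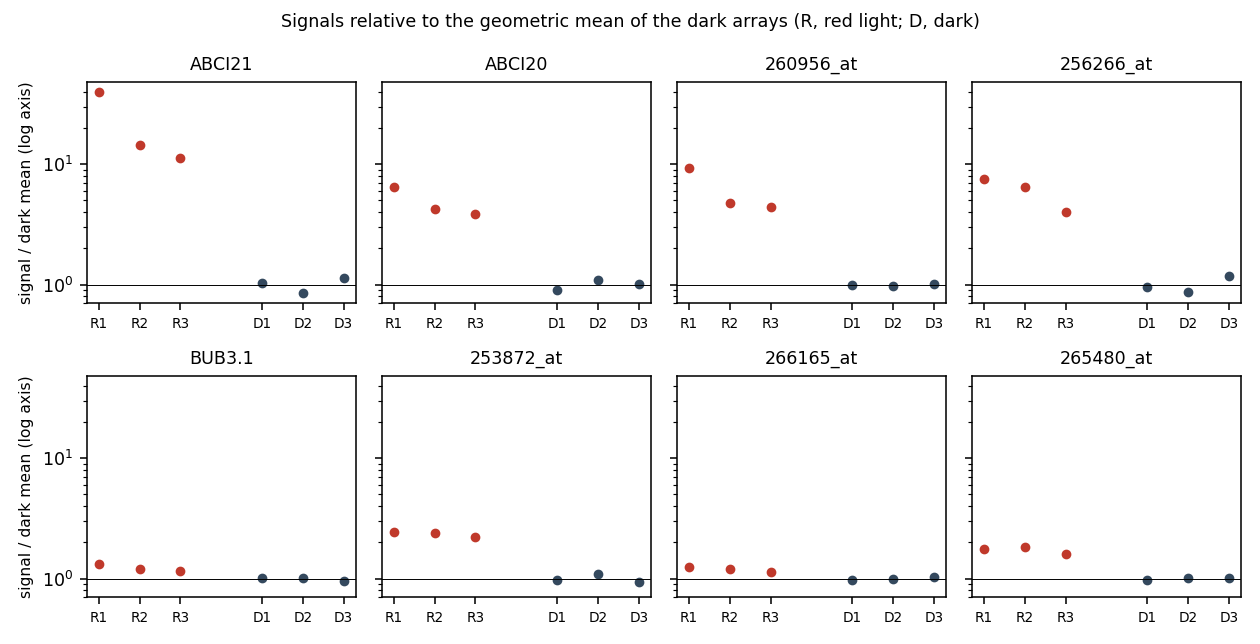
Signal of ABCI21, ABCI20 and the 6 probe sets most correlated with them, each divided by the geometric mean of its dark arrays (log axis), on red light arrays R1 to R3 and dark arrays D1 to D3. ABCI21 reaches 39.9 times its dark mean on R1, whereas BUB3.1 stays near its dark level with the same shape.

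Of the genes around ABCI20 and ABCI21, few could be followed. The RefSeq table holds 127 ABC proteins, 18 of them with an ABCI symbol, and the platform annotation names a probe set for 0 of the 127. That holds for ABCI19 as well as for the pair, which is known here by its row identifiers. Whether the other ABC proteins responded could not be told here. Among 41 light signalling regulators, 2 had a named probe set. HYH, the bZIP homologue of HY5, was below the signal filter. Its signals were 126, 38.1 and 50.9 in red light, against 64.5, 1.9 and 65.1 in the dark, and those ranges overlap. Within each array class HYH was higher in red light, with 126 against 64.5 and 65.1 on high-ratio arrays, and 38.1 and 50.9 against 1.9 on low-ratio arrays. That difference was not tested. FHL, which helps phytochrome A into the nucleus, had 259.1, 240 and 104.4 in red light, against 237.2, 269.9 and 194.5 in the dark, with a change of -0.31 (SE 0.42, limma adjusted p = 0.999).

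Among 25 further light-induced genes, 4 were matched to a named probe set by symbol or synonym. Of these, 3 were tested, with a median change of 0.84 against -0.02 over all tested probe sets. Neither fit called any of the 3. UGT78D2, a flavonoid glucosyltransferase gene, had signals of 268.7, 261.8 and 250.2 in red light, against 115.9, 89.6 and 126.8 in the dark. The clock gene GI had signals of 1510.7, 2003.5 and 1688 in red light, against 895.7, 1056.1 and 947 in the dark. CHI, the chalcone isomerase gene of flavonoid synthesis, had signals of 340.5, 230.3 and 386.1 in red light, against 434.2, 577.5 and 497.2 in the dark. The treatments did not overlap for any of the 3, with UGT78D2 and GI higher in red light and CHI lower. Over all tested probe sets, 2.23% were apart upward and 3.93% downward. The changes were 1.25 (SE 0.30) for UGT78D2, 0.84 (SE 0.25) for GI and -0.68 (SE 0.31) for CHI, and limma gave each an adjusted p of 0.999 with treatment alone.

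Cytokinin genes were also sparsely covered. Of 39 genes of cytokinin perception and response, 5 had a named probe set and 0 of these passed the signal filter. ARR15, a type-A response regulator gene induced by cytokinin, had signals of 65, 69.9 and 51.4 in red light, against 38.5, 27.6 and 90.3 in the dark, and the groups overlapped. Of 37 genes of cytokinin synthesis, transport and breakdown, 2 were tested and neither was called. UGT76C1 and UGT76C2, which attach glucose to cytokinins, had changes of -0.73 (SE 0.50) and -0.02 (SE 0.30), with a limma adjusted p of 0.999 each.

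The genes next to ABCI20 on the chromosome gave a local comparison, chosen after the data were seen. EXPA9, an expansin gene of cell wall loosening, had signals of 153.1, 414.6 and 478.5 in red light, against 200.5, 610 and 114.1 in the dark. AT5G02280, the neighbour on the other side, had 2277.5, 1008.5 and 1009.8 in red light, against 1332.9, 782.8 and 1434.3 in the dark. In both neighbours the treatments overlapped, and the changes with treatment alone were 0.37 (SE 0.69) for EXPA9 and 0.21 (SE 0.42) for AT5G02280 (limma adjusted p = 0.999 each). With array class they were -0.22 (SE 0.30, limma adjusted p = 0.935) for EXPA9, a turn in direction, and 0.54 (SE 0.20, limma adjusted p = 0.633) for AT5G02280. By array class, AT5G02280 was higher in red light on the high-ratio arrays, with 2277.5 against 1332.9 and 1434.3 in the dark. It was also higher on the low-ratio arrays, with 1008.5 and 1009.8 against 782.8. EXPA9 in red light lay between the dark signals on the high-ratio arrays (153.1 against 200.5 and 114.1). On the low-ratio arrays EXPA9 was lower in red light (414.6 and 478.5 against 610). These differences within classes were not tested. The neighbours of ABCI21 had no named probe set.

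Markers of shoot and root tissue were set beside the pair. The 6 tested green shoot markers had a summed signal of 869 to 2744.3 in red light and 1361.1 to 2544.2 in the dark, and none was called. LHCB4.1, an antenna protein gene, and RCA, the Rubisco activase gene, had changes of -0.33 (SE 0.29) and 0.32 (SE 0.57). The 4 root markers had a summed signal of 21439 to 28734.2 in red light and 18789.8 to 42035.1 in the dark, with a median change of -0.26, and none was called. Most of that sum was PYK10, with 18266.7 to 28259.9 in red light and 15318 to 40657.8 in the dark. With treatment alone, XTH26, a root hair wall enzyme gene, had a change of -0.43 (SE 0.48) and PYK10, a beta-glucosidase gene of roots, of -0.17 (SE 0.44). The root hair expansin genes EXPA7 and EXPA18 had changes of -0.34 (SE 1.39) and -0.18 (SE 0.93) in the same fit. None of the markers with a named probe set was listed at 0. No probe set on any array was, so this is no sign of detection.

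With array class the median change of the root markers was -0.90. EXPA7 had a change of -1.54 (SE 0.67), EXPA18 of -0.999 (SE 0.35) and XTH26 of -0.81 (SE 0.24), whereas PYK10 had 0.09 (SE 0.24). The EXPA7 signal on red light 1 was only 16.6, below the 88.4 that the signal filter set for the mean over arrays. Of these 4, 2 had an unadjusted p under 0.05 in limma, against 6.88% of all tested probe sets, and 0 were called after adjustment. The median class difference, high-ratio minus low-ratio arrays, was -1.80 for the root markers and 1.25 for the green shoot markers, against -0.07 over all tested probe sets. Within the root markers the class difference was -3.61 for EXPA7, -2.47 for EXPA18 and -1.14 for XTH26, but 0.79 for PYK10. Within the green shoot markers it was 2.24 for PSBW, 1.64 for PSAE-1, 1.37 for PSAN and 1.12 for PSBY. It was -0.04 for LHCB4.1 and -0.15 for RCA. The high-ratio arrays include red light 1, on which ABCI20 and ABCI21 had their highest signals. The part of these marker differences in the signals of ABCI20 and ABCI21 was not tested.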

How the data were processed

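The deposited values are linear signal intensities, 1 for each probe set on each array, and the submitters' processing notes name MAS5 as the authors' tool. Its version, detection calls and the genome build of the array design are not given in the sources used here. Per the labels, biotin-labelled cRNA was made from 5 µg of total RNA with oligo-dT priming. The mean after trimming 2% from each end was 500.04 to 500.06 on every array.

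From 22810 probe sets 64 controls were set aside. The log2 of each value was used with no pseudocount (0 values were at 0). The tests covered probe sets whose mean log2 signal exceeded the 40th percentile (88.4 in signal), and both ABC genes passed. limma 3.58.1 (trend and robust, statmod 1.5.0, R 4.3.3) was fitted over all 13647 with treatment alone and with array class, split at the widest gap of the GAPDH ratio. P-values are 2-sided and Benjamini-Hochberg adjusted over all tested probe sets, with 4 and 3 residual degrees of freedom. The precision is limited by 3 arrays per group. The fits were tested on simulated data.

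The annotation named exactly 1 gene for 13513 probe sets. Listed genes were matched by symbol or synonym. Named genes were the pair, any called list member, the 2 tested members of each list with the largest moderated t and the 6 most correlated probe sets. HYH, ARR15, CHI, EXPA7, EXPA18, EXPA9 and AT5G02280 lie outside that rule and were picked with their values in view. PSBW, PSAE-1, PSAN and PSBY also lie outside it and complete the tested green shoot markers. The genes, lists and fits were chosen with earlier results of these data known. Deviations of the 2 arrays with the same replicate number correlated at 0.58, 0.64 and -0.32 for replicates 1, 2 and 3. The arrays of replicates 1 and 2 share an array class and those of replicate 3 do not. These values therefore cannot decide whether replicate numbers pair the arrays.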

Additional observations from a re-analysis of the deposited data

How the results depend on the processing

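ABCI20 and ABCI21 kept a positive change in red light minus dark in every alternative run. Leaving out arrays could not have turned this direction, since every red light signal lay above every dark signal. By array class, the change was 5.20 for ABCI21 and 2.77 for ABCI20 in the high-ratio class, and 1.90 for ABCI20 in the low-ratio class, beyond 1 SD between replicates from the values with treatment alone. Leaving out 1 array gave 3.67 to 4.58 for ABCI21 and 2.03 to 2.40 for ABCI20. The class difference of ABCI21 was 0.36 to 1.65 when 1 array was left out and lost its call with a replicate block beside array class (1.38), and that of ABCI20 was -0.19 to 0.68, turning negative without red light 1 (-0.19). The replicate block changed no other call of these genes. The number of calls with treatment alone was 0 in the reported fit, 17 with array class as a term, 2261 with array weights and 0 to 10 when 1 array was left out. With array class it was 17, or 5 with plain eBayes, and 8 to 272 when 1 array was left out. It was 272 without dark 2, 71 without red light 1, 28 without dark 3, 9 without red light 3 and 8 without red light 2. The cause was not tested. The listed genes gave 0 calls with treatment alone, with array class and with the replicate block. The dark level of ABCI21 lies close to the array medians, and signal over background was not measured here.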
